A study of Mus musculus with 24 samples.

Results

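The myosin heavy chain and troponin isoforms of skeletal muscle were followed through the postnatal development of the mouse cochlea. The members were Myh1, Myh2, Myh3, Myh4, Myh7, Myh8, Tnni1, Tnni2, Tnnt1 and Tnnt3. They were taken at every probe set that is annotated to 1 of these symbols and to no other gene, which gave 10 of the 18194 genes so annotated and 15 of the 45101 probe sets of the array. This rule reads symbols alone, although the 10 genes were picked with earlier results of these data known. Myh1 and Tnni2 had 3 probe sets each, Myh4 had 2 and each remaining gene had 1. A further 2 probe sets are annotated to Myh7 and Myh6 together and were left out.

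Total RNA of whole cochleae was measured on 24 Affymetrix arrays, 3 for each genotype at each of 4 ages, postnatal day 3 (P3), P7, P13 and P60. All mice were of the hybrid 129S6 x CBA/CaJ background, bred back to CBA/CaJ for at least 7 generations. The α9-/- mice lack the α9 nicotinic receptor subunit constitutively, in every cell of the body, and wild type mice of the same ages were the controls. No agent was given to any group. Each array carried 1 pool of cochleae, from 3 to 5 mice according to the design text. The methods state the pools as numbers of cochleae that differ between ages, and these were not reconciled with the design text. The array is the replicate throughout (n = 3).

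Myosin heavy chain is the motor of the thick filament, and each muscle fibre holds the isoforms that set its speed. Embryonic (Myh3) and perinatal (Myh8) heavy chains are made by newly formed fibres and are replaced after birth by the adult fast isoforms IIa (Myh2), IIx (Myh1) and IIb (Myh4), or by the slow isoform (Myh7). On the thin filament, the troponin complex makes contraction depend on calcium. Tnni1 and Tnnt1 encode its inhibitory and its tropomyosin-binding subunit in slow fibres, and Tnni2 and Tnnt3 encode those of fast fibres. The cochlea itself holds no skeletal muscle. The stapedius and the tensor tympani, skeletal muscles of the middle ear, lie beside it, and no source read here tells whether fibres of them were in the pools. In bulk tissue, fewer muscle cells and less RNA per cell cannot be told apart.

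The fast and developmental heavy chain genes lie in one cluster on chromosome 11, in the order Myh3 (67078273 to 67102291), Myh2 (67171027 to 67197517), Myh1 (67200102 to 67224577), Myh4 (67237812 to 67260447) and Myh8 (67277124 to 67308634), by the RefSeq annotation of GRCm38.p6. Myh7 lies on chromosome 14 (54970684 to 54994626) and Tnni1 on chromosome 1 (135783033 to 135810989). Tnnt1 (4504569 to 4515975), Tnni2 (142441816 to 142444410) and Tnnt3 (142498771 to 142516213) lie on chromosome 7. The heavy chain genes are near-identical over long stretches, so a probe set of one can take up signal from another. Myhas, a noncoding RNA antisense to this locus, is transcribed between Myh1 and Myh4, and a probe set named for it and the second Myh1 probe set come from clones of 1 accession.

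RefSeq gives promoters, here the 250 bases before and the 50 after the start, for 8 of the 10 genes, and for Tnni2 and Tnnt3 none was matched. The promoters of the 4 genes with the largest change between P3 and P60 are shown, since they stand for both directions of the switch and come from 1 locus. Capitals mark matches to the E-box (CANNTG), the letters read by myogenic basic helix-loop-helix factors, and to the TATA box (TATAAA), each on either strand. All 4 are written 5′ to 3′ on the plus strand of GRCm38.p6, at chr11:67078050-67078349 for Myh3, chr11:67276874-67277173 for Myh8, chr11:67199852-67200151 for Myh1 and chr11:67237562-67237861 for Myh4.
Myh3: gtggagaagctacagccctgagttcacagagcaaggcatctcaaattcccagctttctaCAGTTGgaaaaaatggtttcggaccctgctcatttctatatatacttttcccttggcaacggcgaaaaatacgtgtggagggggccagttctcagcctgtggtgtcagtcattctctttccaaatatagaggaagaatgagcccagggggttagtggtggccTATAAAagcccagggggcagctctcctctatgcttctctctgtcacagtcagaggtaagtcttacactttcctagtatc
Myh8: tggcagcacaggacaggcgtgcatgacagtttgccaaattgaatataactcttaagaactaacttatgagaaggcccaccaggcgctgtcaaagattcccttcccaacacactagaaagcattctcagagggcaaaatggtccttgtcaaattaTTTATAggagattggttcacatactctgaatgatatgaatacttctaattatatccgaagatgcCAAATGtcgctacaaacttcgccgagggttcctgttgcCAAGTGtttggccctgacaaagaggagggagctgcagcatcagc
Myh1: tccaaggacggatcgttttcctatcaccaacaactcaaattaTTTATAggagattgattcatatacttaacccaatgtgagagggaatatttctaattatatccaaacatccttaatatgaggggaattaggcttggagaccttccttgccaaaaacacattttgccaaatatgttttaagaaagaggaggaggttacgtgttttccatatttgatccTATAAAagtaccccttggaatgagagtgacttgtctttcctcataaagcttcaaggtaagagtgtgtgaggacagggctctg
Myh4: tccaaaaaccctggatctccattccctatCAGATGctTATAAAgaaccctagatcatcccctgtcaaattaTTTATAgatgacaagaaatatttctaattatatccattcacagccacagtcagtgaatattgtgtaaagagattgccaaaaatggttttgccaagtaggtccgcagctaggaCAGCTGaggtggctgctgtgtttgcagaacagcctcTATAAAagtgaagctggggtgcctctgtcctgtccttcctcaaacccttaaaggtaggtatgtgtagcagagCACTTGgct

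An E-box was found once in the Myh3 promoter, 2 times in that of Myh8, 3 times in that of Myh4 and not in that of Myh1, while 72.3% of all 32851 promoters of the same length hold at least 1. TATAAA on either strand was found in all 4, against 13.6% of all promoters. It began 29 bases before the start in Myh3, 32 before it in Myh1 and 31 before it in Myh4. In Myh8 the only match was on the other strand, 96 bases before the start. Myh1, Myh4 and Myh8 also held a match to the MEF2 site, which overlapped a TATAAA match of the other strand in each and which 3.19% of all promoters hold. Myh4 alone of the 4 held a CArG box (1.63% of all promoters). The longest run of letters shared by a pair was the 22 bases tcaaattatttataggagattg of Myh8 and Myh1. Myh1 and Myh4 shared the 20 bases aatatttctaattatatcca, and Myh3 shared at most 11 bases with any of the other 3. A match is a description of these letters and not of a bound site.

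Array medians ran from 6.49 to 6.89 on the log2 scale and differed by age. At P13 they were 6.73 to 6.89, above every array of P3 (6.49 to 6.61), P7 (6.57 to 6.63) and P60 (6.56 to 6.66). Chrna9, the deleted gene, was dim in every group, with group means between 3.54 and 5.89 over its 3 probe sets. It does not serve as a check of the labels, since no source read here tells whether these probe sets lie in the deleted stretch. Group means over 8 measured hair cell genes ran from 6.81 to 7.36, and those over 10 markers of other cochlear cells from 9.95 to 10.42. Of these lists, and named after their values were seen, Coch, Otor, Tectb and Gjb2 were bright. Tectb and Otor fell from P3 to P60, as given below. The outer hair cell gene Slc26a5, named likewise, did not exceed 5.45 on any array. The 3′ control probe set of Gapdh exceeded the 5′ one by 6.30 to 7.69 in 5 arrays and by at most 2.43 in the other 19. The 5 were wild type replicates 1 and 2 of P13, wild type replicate 1 of P60, and at P3 wild type replicate 1 and α9-/- replicate 2. Of the 6 arrays of an age, 4 of P3, 2 of P7, 2 of P13 and 6 of P60 carried spiked poly-A control transcripts.

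Muscle signal differed widely between pools of one group. As a measure of it that uses no member, the log2 signals of 7 genes of the sarcomere and the muscle cytoskeleton were averaged on each array and called the pan-muscle level. Of these, Ttn, Neb, Actn2, Ldb3, Des and Myom1 are expressed by slow and fast fibres, while Tnnc2 is the troponin C of fast fibres and a partner of Tnni2 and Tnnt3. At P3 it was 9.26, 8.09 and 7.28 in wild type and 7.75, 7.96 and 10.03 in α9-/- replicates 1 to 3. At P7 it lay between 7.32 and 7.88 on all 6 arrays. At P13 it was 8.44, 7.35 and 9.23 in wild type and 7.28, 7.20 and 7.18 in α9-/-. At P60 it was 8.41, 9.14 and 10.81 in wild type and 8.85, 9.13 and 10.41 in α9-/-. Replicate 3 of both genotypes was thus the richest in muscle RNA at P60, replicates 1 and 3 of wild type at P13, and at P3 replicate 1 of wild type and replicate 3 of α9-/-, while the α9-/- pools of P13 were all poor in it. The limma comparisons of the members were therefore repeated without each array in turn and at an equal pan-muscle level.

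The first question was how the isoforms changed with age. From P3 to P60 the developmental heavy chains Myh3 and Myh8 fell and the adult fast chains Myh1 and Myh4 rose, in wild type as in α9-/-. Of the 15 member probe sets, 4 rose and 2 fell in each genotype (limma over 24 arrays, called where the log2 difference is 1.5 or more with an adjusted p below 0.05), while over all 45101 probe sets 3.2% rose and 1.3% fell in wild type and 2.79% rose and 1.52% fell in α9-/-. The median over all probe sets moved by 0.01 in wild type and by -0.05 in α9-/- in this contrast. The remaining isoforms, Myh2, Myh7 and all 4 troponins, did not pass in either genotype. The count that rose in wild type was 7 without P3 replicate 1, 2 without P3 replicate 3, 8 with array weights, and 8 without the 5 arrays named for Gapdh, where Myh3 no longer passed (-2.31) and 1 fell. In α9-/- it was 2 without P3 replicate 1 or P60 replicate 3. All P60 arrays lay above all P3 arrays in 5 of 15 member probe sets of wild type (12.7% of all probe sets) and 4 of α9-/- (13.7%), and below them in 3 of each genotype (10.8% and 17.5%).

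**Figure D1:**
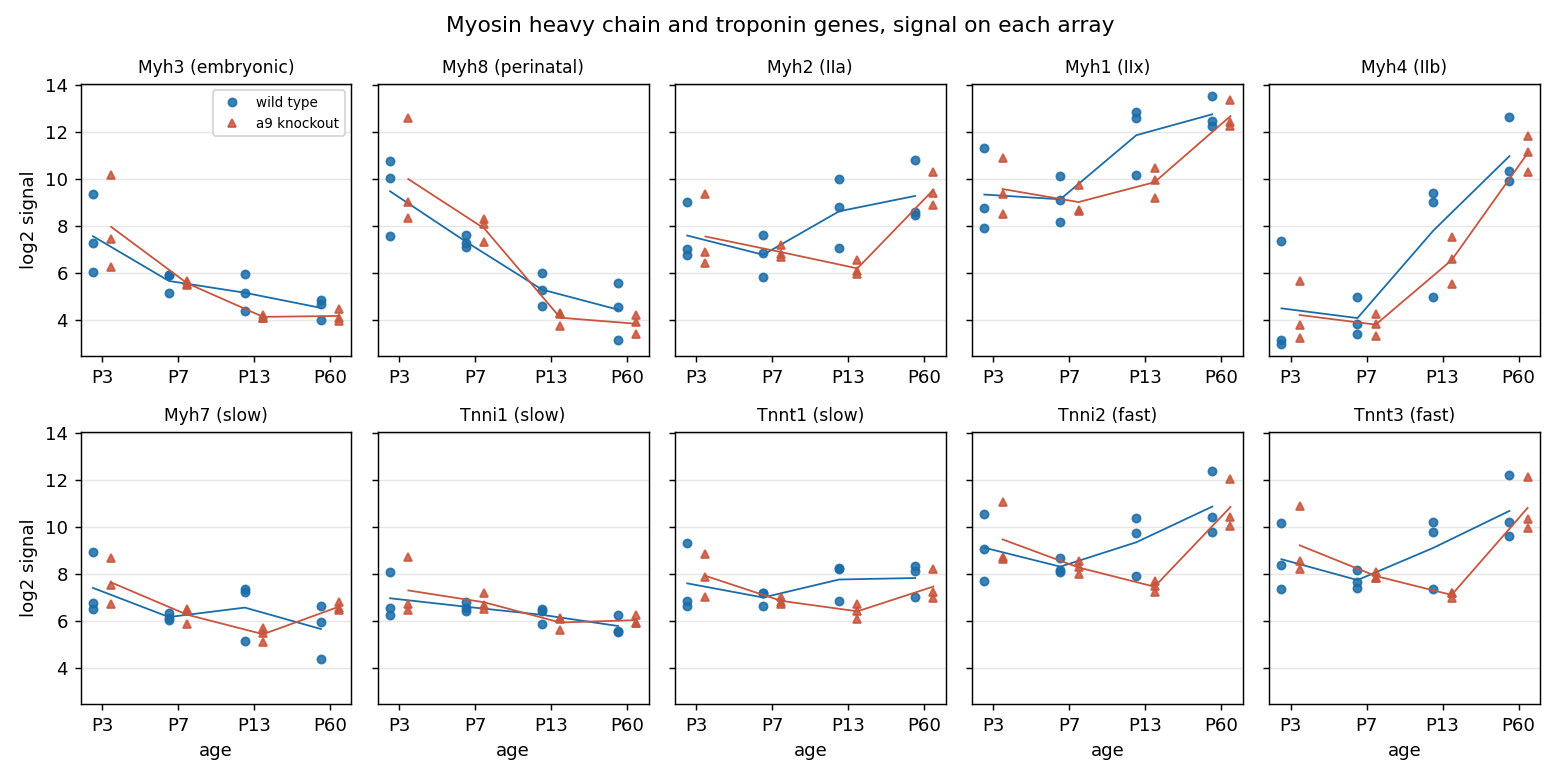
Log2 signal (y axis) of each of the 10 genes at its brightest probe set against age (x axis), with 1 point per array (circles wild type, triangles α9-/-) and lines through the group means (n = 3). Myh3 and Myh8 are high at P3 and low at P60, Myh4 runs the other way, and the 3 pools of a group spread widely at P3 and in wild type at P13.

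Myh8 encodes the perinatal heavy chain and fell furthest. Its log2 signal in replicates 1 to 3 at P3 was 10.78, 10.06 and 7.60 in wild type and 8.35, 9.04 and 12.60 in α9-/-. At P7 it was 7.29, 7.09 and 7.62 in wild type and 8.28, 8.10 and 7.32 in α9-/-. The P7 pools lay close together, below all P3 pools of either genotype apart from P3 wild type replicate 3, which lay within the P7 range. At P13 it was 6.02, 4.61 and 5.28 in wild type and 4.31, 3.74 and 4.27 in α9-/-, and at P60 it was 4.58, 3.17 and 5.60 in wild type and 3.91, 3.40 and 4.22 in α9-/-. No P60 array overlapped any P3 array. The fall from P3 to P60 was a log2 difference of -5.03 ± 0.86 (SE) in wild type, or 32.7-fold (limma, adjusted p = 0.000374), and of -6.15 ± 0.86 (SE) in α9-/-, or 71.2-fold (adjusted p = 5.98e-05). Leaving out any 1 array of the contrast left the fall between -5.97 and -4.38 in wild type and between -6.98 and -4.85 in α9-/-, past the threshold each time. The P60 values are as low as those of Myh4 at P3 and may lie at background, so that the folds are not exact.

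Myh3, the embryonic heavy chain, followed Myh8 at a lower signal. At P3 its log2 signal was 9.38, 7.29 and 6.04 in wild type and 6.27, 7.45 and 10.17 in α9-/-. By P7 it had a range of 5.17 to 5.92 over all 6 arrays. At P13 it was 5.98, 4.38 and 5.13 in wild type and 4.11, 4.10 and 4.21 in α9-/-. All P7 arrays lay below all P3 arrays in 2 of 15 member probe sets of wild type (6.6% of all probe sets) and 6 of α9-/- (6.41%), Myh3 among them, although neither Myh3 (adjusted p = 0.273 in wild type and 0.138 in α9-/-) nor any other member passed limma from P3 to P7 (0 of 15 in either genotype and direction, with 2 lower in wild type and 3 lower in α9-/- at an unadjusted p under 0.05). At P60 Myh3 lay between 3.97 and 4.84 on all 6 arrays. The difference from P3 to P60 was -3.05 ± 0.74 (SE) in wild type (8.27-fold lower, adjusted p = 0.00791) and -3.79 ± 0.74 (SE) in α9-/- (13.8-fold lower, adjusted p = 0.00151), and it passed without any 1 array.

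Myh4 encodes the IIb chain of the fastest fibres and rose furthest of all members. Its log2 signal at P3 was 7.38, 3.13 and 2.99 in wild type and 3.22, 3.78 and 5.65 in α9-/-, and 3.31 to 4.99 over the 6 arrays of P7. The 2 high values at P3 belong to the 2 pools with the highest pan-muscle level. At P13 it was 9.03, 4.99 and 9.42 in wild type and 5.52, 7.52 and 6.62 in α9-/-, with wild type replicate 2 at the level of the highest P7 array. At P60 it was 9.93, 10.33 and 12.65 in wild type and 10.31, 11.16 and 11.84 in α9-/-, and no P60 array overlapped any array of an earlier age. The rise from P3 to P60 was a log2 difference of 6.47 ± 1.13 (SE) in wild type, or 88.8-fold (limma, adjusted p = 0.000467), and of 6.88 ± 1.13 (SE) in α9-/-, or 118.1-fold (adjusted p = 0.000282). It passed without any 1 array, between 5.63 and 7.91 in wild type and between 6.39 and 7.60 in α9-/-. The files used here hold no detection calls, and the low P3 values may lie at background, where a fold is compressed. The second Myh4 probe set was dimmer, and rose by 1.80 ± 0.51 (SE) in wild type (adjusted p = 0.0209) and by 3.55 ± 0.51 (SE) in α9-/- (adjusted p = 8.3e-05).

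Myh1, the IIx chain, was bright at every age. At P3 its log2 signal was 11.31, 8.78 and 7.94 in wild type and 8.50, 9.35 and 10.88 in α9-/-. At P13 it was 12.58, 10.16 and 12.86 in wild type and 10.46, 9.18 and 9.96 in α9-/-. At P60 it was 12.25, 12.49 and 13.53 in wild type and 12.26, 12.43 and 13.35 in α9-/-, with every P60 array above every P3 array. The rise from P3 to P60 was 3.41 ± 0.80 (SE) in wild type (10.7-fold, limma adjusted p = 0.0061) and 3.10 ± 0.80 (SE) in α9-/- (8.60-fold, adjusted p = 0.0124). In α9-/- it passed in 4 of the 6 fits without 1 array of that contrast, with differences of 2.56 to 3.76. The second Myh1 probe set gave nearly the same differences (3.28 and 2.88), whereas the third was below the median of every array and differed by 0.25 and -0.17, without passing.

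Myh2, the IIa chain, had a log2 difference of 1.68 ± 0.80 (SE) in wild type (limma adjusted p = 0.195) and of 1.98 ± 0.80 (SE) in α9-/- (adjusted p = 0.114) between P3 and P60, neither of which passed. Its P3 and P60 arrays overlapped in both genotypes, since P3 wild type replicate 1 lay above 2 of the 3 P60 arrays of its genotype (8.46 and 8.58), and α9-/- replicate 3 of P3 (9.35) above the lowest P60 array (8.89). Myh7, the slow heavy chain, had a difference of -1.75 ± 0.64 (SE) in wild type (limma adjusted p = 0.0799) and of -1.03 ± 0.64 (SE) in α9-/- (adjusted p = 0.335). It ran from 6.53 to 8.94 over the P3 arrays and from 4.39 to 6.81 over the P60 arrays.

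Among the troponins, the slow inhibitory subunit Tnni1 had 8.07, 6.57 and 6.28 in wild type and 6.46, 6.73 and 8.73 in α9-/- at P3. At P60 it had 5.58, 5.54 and 6.26 in wild type and 5.94, 5.92 and 6.27 in α9-/-. P60 lay below P3 on every array of either genotype, but the differences of -1.18 ± 0.47 (SE) and -1.26 ± 0.47 (SE) did not pass (adjusted p = 0.107 and 0.0795). Its fast counterpart Tnni2 differed by 1.75 ± 0.78 (SE) in wild type and 1.38 ± 0.78 (SE) in α9-/- (adjusted p = 0.158 and 0.277). The fast tropomyosin-binding subunit Tnnt3 differed by 2.06 ± 0.83 (SE) and 1.59 ± 0.83 (SE) (adjusted p = 0.115 and 0.235), and the slow one, Tnnt1, by 0.23 ± 0.58 (SE) and -0.46 ± 0.58 (SE). The sign for Tnnt1 turned in wild type without P3 replicate 2 (-0.14), P3 replicate 3 (-0.26) or P60 replicate 3 (-0.03) and in α9-/- without P3 replicate 3 (0.013). One further Tnni2 probe set moved as the first did, and the other stayed under the median signal of every array.

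**Figure D2:**
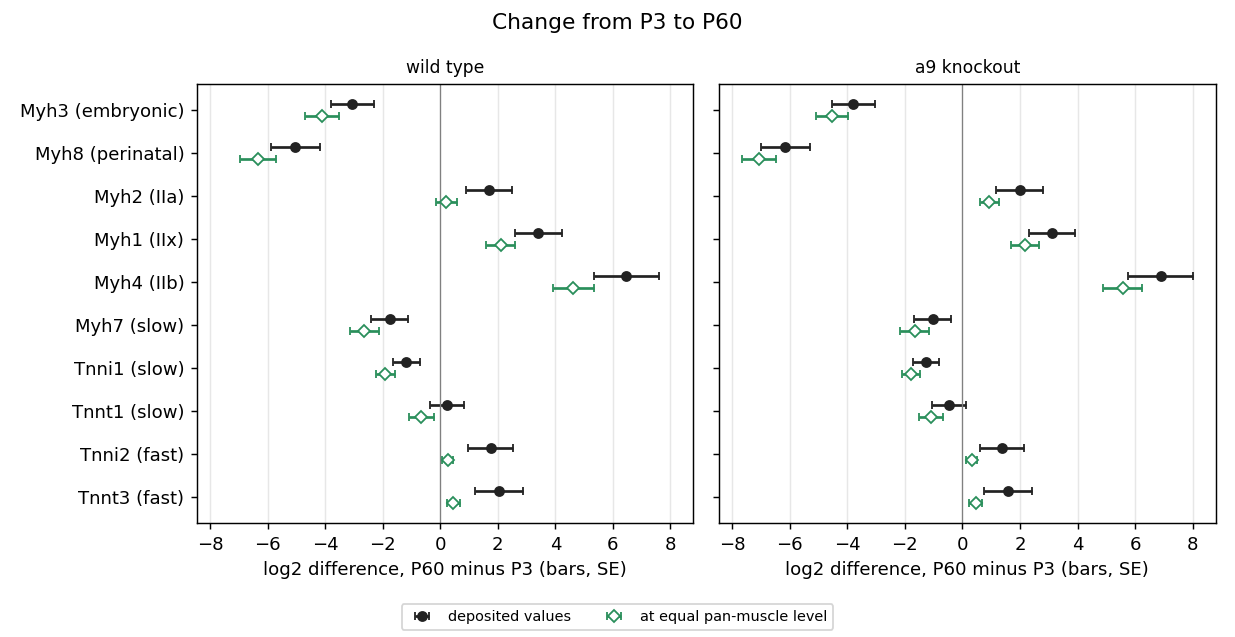
Log2 difference between P60 and P3 (x axis, bars give the SE) for each gene (y axis) in wild type (left) and α9-/- (right), from the deposited values (filled circles) and at an equal pan-muscle level (open diamonds). Myh3 and Myh8 lie left of 0 and Myh1 and Myh4 right of 0 in every fit, while Tnni2 and Tnnt3 come close to 0 at an equal pan-muscle level and Myh7 and Tnni1 move further left.

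With the pan-muscle level of each array as a covariate, the change from P3 to P60 is read between arrays of equal muscle signal. The SEs of the 10 genes became smaller, and Myh3, Myh8, Myh1 and Myh4 still passed in both genotypes. Myh8 fell by 6.32 on the log2 scale in wild type (limma, adjusted p = 1.59e-06) and by 7.07 in α9-/- (adjusted p = 3.88e-07), and Myh4 rose by 4.62 (adjusted p = 0.000179) and 5.57 (adjusted p = 2.17e-05). Myh3 fell by 4.10 and 4.54 and Myh1 rose by 2.09 and 2.17 in wild type and α9-/-. Of the 3 slow isoforms, Tnni1 and Myh7 now passed in both genotypes. Tnni1 fell by 1.91 ± 0.32 (SE) in wild type (adjusted p = 0.000435) and by 1.78 ± 0.31 (SE) in α9-/- (adjusted p = 0.000607). Myh7 fell by 2.63 ± 0.52 (SE) (adjusted p = 0.00172) and by 1.66 ± 0.50 (SE) (adjusted p = 0.0323). That made 4 member probe sets lower in each genotype, against 1.74% and 1.49% of all probe sets, and 3 higher in wild type (3.32%) and 4 in α9-/- (2.59%). The fast troponins Tnni2 and Tnnt3 instead differed by 0.25 and 0.46 in wild type and by 0.32 and 0.46 in α9-/- and did not pass. Tnnt1 gave -0.66 in wild type and -1.09 in α9-/- (adjusted p = 0.352 and 0.0895). With Tnnc2 left out of the covariate, an alternative chosen after seeing the data, each of the 15 probe sets kept its call in both genotypes, and Tnni2 and Tnnt3 differed by 0.29 and 0.49 in wild type and by 0.35 and 0.49 in α9-/-. The covariate comes from the same arrays and itself differs between the ages, so these are values at equal measured muscle signal and not measurements of equal tissue.

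**Figure D3:**
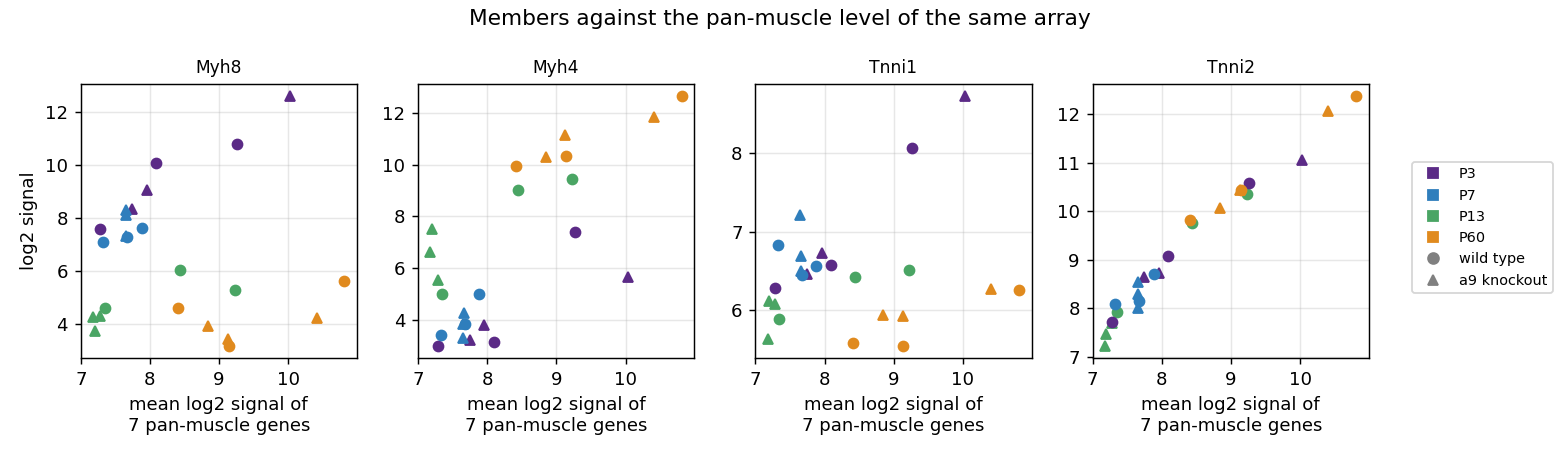
Log2 signal (y axis) of Myh8, Myh4, Tnni1 and Tnni2 against the mean log2 signal of the 7 pan-muscle genes on the same array (x axis), with 1 point for each of 24 arrays, colour for age and shape for genotype. Tnni2 runs along 1 line at all ages, whereas Myh8 and Tnni1 lie higher at P3 than at P60 at the same pan-muscle level and Myh4 lies lower.

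Members differed in how steeply they rose with the pan-muscle level within groups. Per unit of it, in the same fit, Tnnt3 rose by 1.28 ± 0.08 (SE), Tnni2 by 1.20 ± 0.07, Myh2 by 1.18 ± 0.12, Myh1 by 1.06 ± 0.17 and Myh8 by 1.04 ± 0.21. The slope was 1.49 ± 0.23 for Myh4 and lowest for Tnni1 at 0.59 ± 0.11, with Myh3 at 0.85 ± 0.19 and Myh7 and Tnnt1 at 0.71 each. The slopes of Myh2, Tnni2 and Tnnt3, each taken with its SE on either side, overlapped.

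Between P7 and P13 the adult heavy chains Myh1 and Myh4 passed in wild type and the perinatal Myh8 in α9-/-, while Myh2 and Myh7 passed in neither. In wild type 3 of 15 member probe sets rose (background 3.8%) and 0 fell (1.43%; limma, 1 lower at an unadjusted p under 0.05), and in α9-/- 0 rose (1.43%; 1 higher at an unadjusted p under 0.05) and 1 fell (0.104%). Those that rose in wild type were Myh1, by 2.72 ± 0.80 (SE) and 2.74 ± 0.80 (SE) at 2 probe sets (adjusted p = 0.0207 and 0.0199), and Myh4, by 3.72 ± 1.13 (SE) (adjusted p = 0.0235). Without P13 wild type replicate 1 or replicate 3, 0 member probe sets rose, and 0 rose without P7 wild type replicate 2 or with array weights. The one that fell in α9-/- was Myh8, by 3.80 ± 0.86 (SE) on the log2 scale (adjusted p = 0.0107), and it no longer passed without P13 α9-/- replicate 2. The median over all probe sets moved by 0.27 in wild type and 0.15 in α9-/- in this contrast. At an equal pan-muscle level 3 rose and 1 fell in wild type (background 4.65% and 2.28%), and 1 rose and 1 fell in α9-/- (1.39% and 0.0887%). Myh8 fell by 2.77 ± 0.59 (SE) in wild type (adjusted p = 0.00204) and by 3.34 ± 0.58 (SE) in α9-/- (adjusted p = 0.00154), and Myh4 rose by 2.66 ± 0.67 (SE) (adjusted p = 0.00653) and by 3.39 ± 0.66 (SE) (adjusted p = 0.00367).

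Between P13 and P60, 8 of the 15 member probe sets rose in α9-/- (background 1.1%) and 1 rose in wild type (0.92%), with 0 lower in both (1.88% and 2.88%; 0 at an unadjusted p under 0.05). The 1 in wild type was Myh4, by 3.16 ± 1.13 (SE) (limma adjusted p = 0.0452). Leaving out 1 array in turn gave 0 to 2 in wild type, with 0 without P13 replicate 2, P60 replicate 2 or P60 replicate 3. With array weights 8 rose in wild type and 8 in α9-/-, and no member passed the test of the difference between the genotypes in this contrast. In α9-/- the 8 were 2 probe sets each of Myh1, Myh4 and Tnni2 and those of Myh2 and Tnnt3. Myh4 rose by 4.55 and 3.16, Tnnt3 by 3.70, Tnni2 by 3.39 and 2.57, Myh2 by 3.34 and Myh1 by 2.81 and 2.67. The α9-/- arrays of P13 were the poorest in pan-muscle signal, and the 8 became 5 without P13 α9-/- replicate 2 or 3 or P60 α9-/- replicate 3. With pan-muscle signal as a covariate, the second Myh4 probe set rose by 2.11 and Myh8 fell by 2.59 in α9-/-, while Myh8 fell by 2.01 and Myh7 by 1.70 in wild type and no other member passed (background 0.998% higher and 2.31% lower in α9-/-, 0.641% and 2.6% in wild type). The median over all probe sets moved by -0.36 in wild type and -0.34 in α9-/-.

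The isoform balance was then read inside each array, where a difference in the amount of muscle RNA enters both genes, though not always equally. The slopes above were steeper for Tnni2 (1.20) than Tnni1 (0.59) and for Tnnt3 (1.28) than Tnnt1 (0.71). That of Myh4 (1.49) exceeded those of Myh8 (1.04) and Myh3 (0.85), while Myh1 (1.06) was near Myh8. A balance can therefore also move with the amount of muscle RNA. The log2 signal of an early or slow member was subtracted from that of an adult or fast member. The zero point of such a difference has no meaning, since probe sets respond differently, so only its change between arrays is given, as a description with no test. Relative to the mean of the 6 P3 arrays, Myh4 minus Myh8 ranged over the P3 arrays from -1.58 to 1.97, over the P7 arrays from 0.40 to 2.75, over the P13 arrays from 5.76 to 9.53 and over the P60 arrays from 10.73 to 13.13. Over both genotypes, the ranges at P7, P13 and P60 did not overlap. Myh4 minus Myh3 gave at most 1.41 at P3, 1.22 to 2.48 at P7, 4.02 to 7.70 at P13 and 8.50 to 11.36 at P60. Myh1 minus Myh8 gave at most 0.80 at P3, no less than 0.64 at P7, 5.73 to 7.87 at P13 and 7.95 to 9.60 at P60. The P13 pools thus ordered between P7 and P60 in all 3 heavy chain pairs, whether their muscle signal was high or low.

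The troponin pairs moved less. Tnni2 minus Tnni1 relative to the P3 mean lay between -0.89 and -0.02 at P7, between -0.80 and 1.69 at P13 and between 1.96 and 3.96 at P60. Tnnt3 minus Tnnt1 lay between -0.68 and 0.11 at P7, between -0.70 and 0.87 at P13 and between 0.33 and 2.78 at P60. At P13 the mean of Tnni2 minus Tnni1 had changed by 0.93 in wild type and by -0.65 in α9-/-, and every wild type array was above every α9-/- array. The mean pan-muscle level of these groups differed too (8.34 in wild type and 7.22 in α9-/-), and its part in this balance was not tested. For Tnnt3 minus Tnnt1 the lowest P60 array overlapped P3.

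**Figure D4:**
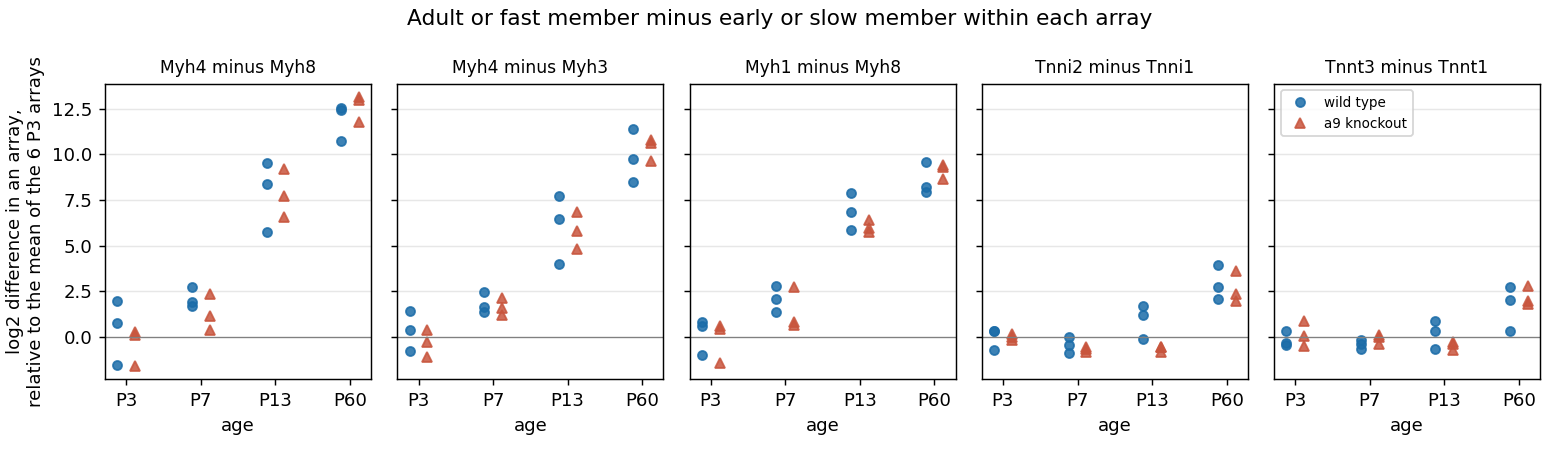
Log2 difference between an adult or fast and an early or slow member within each array (y axis), relative to the mean of the 6 P3 arrays, against age (x axis), with 1 point per array (circles wild type, triangles α9-/-). The 3 heavy chain pairs rise at P13 and again at P60, and the 2 troponin pairs lie highest at P60, with Tnni2 minus Tnni1 reaching 1.69 in wild type at P13, close to its lowest P60 value of 1.96.

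The values of Myh4 at P3 and of Myh3 and Myh8 at P60 that may lie at background enter these balances too. The change of the mean balance from P3 to P60 was 11.50 in wild type and 13.04 in α9-/- for Myh4 minus Myh8, 9.52 and 10.67 for Myh4 minus Myh3, and 8.45 and 9.26 for Myh1 minus Myh8. For Tnni2 minus Tnni1 it was 2.93 and 2.64, and for Tnnt3 minus Tnnt1 it was 1.83 and 2.05. At P13, where the pan-muscle level of the genotypes differed most, the mean of Myh4 minus Myh8, with no reference to P3, came to 2.51 ± 1.93 (SD, n = 3) for wild type and to 2.45 ± 1.29 (SD, n = 3) for α9-/-.

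The second question was whether loss of α9 changed these genes at a given age. At P3 and P7 no member passed limma in either direction, of 14 in the variance filter (background 0% in both directions at P3 and 0.0111% higher and 0% lower at P7; 0 members at an unadjusted p under 0.05). At P60 also 0 passed (background 0% in both directions, 1 higher at an unadjusted p under 0.05). That 1 was the second Myh4 probe set, by 1.75 (limma, 95% interval 0.12 to 3.38, adjusted p = 0.776). For the 10 genes at their brightest probe sets, the P60 differences between α9-/- and wild type ran from -0.60 for Myh8 to 0.95 for Myh7. Of these, 5 of 10 were negative, and the widest 95% intervals reached -1.95 and 2.21. With 3 arrays a group, a difference inside the interval of a gene was not excluded.

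At P13 all 10 genes were lower in α9-/- than in wild type at their brightest probe set. Of the 15 member probe sets 14 were lower, and the second Myh4 probe set differed by 0.06. Of the 14 tested member probe sets 1 passed, that of Myh2, against 0.565% of probe sets called lower and 6.5% called higher. Myh2 had 8.83, 7.07 and 9.99 in wild type and 6.08, 6.56 and 5.96 in α9-/- replicates 1 to 3, so that the groups did not overlap. The difference was -2.43 ± 0.66 (SE) (limma, adjusted p = 0.0499). Of the others, Tnnt3 differed by -2.00 ± 0.69 (SE) (adjusted p = 0.0823), Myh1 by -2.00 ± 0.71 (SE) (0.0897) and Tnni2 by -1.89 ± 0.58 (SE) (0.0643). Tnnt3 had 9.78, 7.35 and 10.23 in wild type and 7.20, 7.18 and 6.97 in α9-/-. In both genes, as in Myh2, wild type replicate 2 was the lowest of its group and close to the α9-/- arrays. Tnni1 had the smallest difference, -0.33 ± 0.28 (SE). In all, 9 of the 14 tested were lower at an unadjusted p under 0.05. In 7 of the 15 member probe sets every α9-/- array lay below every wild type array, against 22.3% of all probe sets. The median over the 15 member probe sets was -1.26, beside -0.16 over all probe sets.

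A sign of RNA quality also differed between the genotypes at P13. The 3′ Gapdh signal exceeded the 5′ one by 6.30, 6.47 and 2.43 in wild type and by 0.34, -0.15 and -0.15 in α9-/-. Without the arrays of low 5′ signal, which leaves wild type replicate 3 alone in its group, 0 members passed (limma), and that lone array was taken to vary like the others. With array weights 0 passed as well, and the differences of Myh4 (1.54), Myh7 (0.12) and Tnni1 (0.042) were positive. The part of RNA quality in the genotype differences was not tested.

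The pan-muscle level moved in the same direction at P13. Its mean was lower, with 8.34 ± 0.94 (SD, n = 3) for the wild type pools against 7.22 ± 0.06 (SD, n = 3) without α9. Of the 7 genes behind it, 1 was called lower (Neb, the giant ruler protein of the thin filament, by 2.20 on the log2 scale, limma adjusted p = 0.0379), and the median over the 7 was -1.35. With this level as a covariate, 0 members passed at P13 (limma, also with Tnnc2 left out), and the differences for Myh4, Myh7 and Tnni1 turned positive. The levels of the genotypes did not overlap (7.35 to 9.23 in wild type and 7.18 to 7.28 in α9-/-). This fit therefore cannot tell the muscle level from the genotype, and nothing is concluded from it. The call for Myh2 also depended on single arrays. Members called lower numbered 8 without wild type replicate 2, 1 without wild type replicate 3, and 0 without wild type replicate 1 or any 1 of the α9-/- arrays. Markers of cerebellum were lower in α9-/- at P13 as well, with a median over 8 genes of -1.50 and list means per array of 6.44 to 9.59 in wild type and 5.85 to 7.85 in α9-/-. That list was called at 0 of 8 genes, and its part in the differences of the members was not tested.

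**Figure D5:**
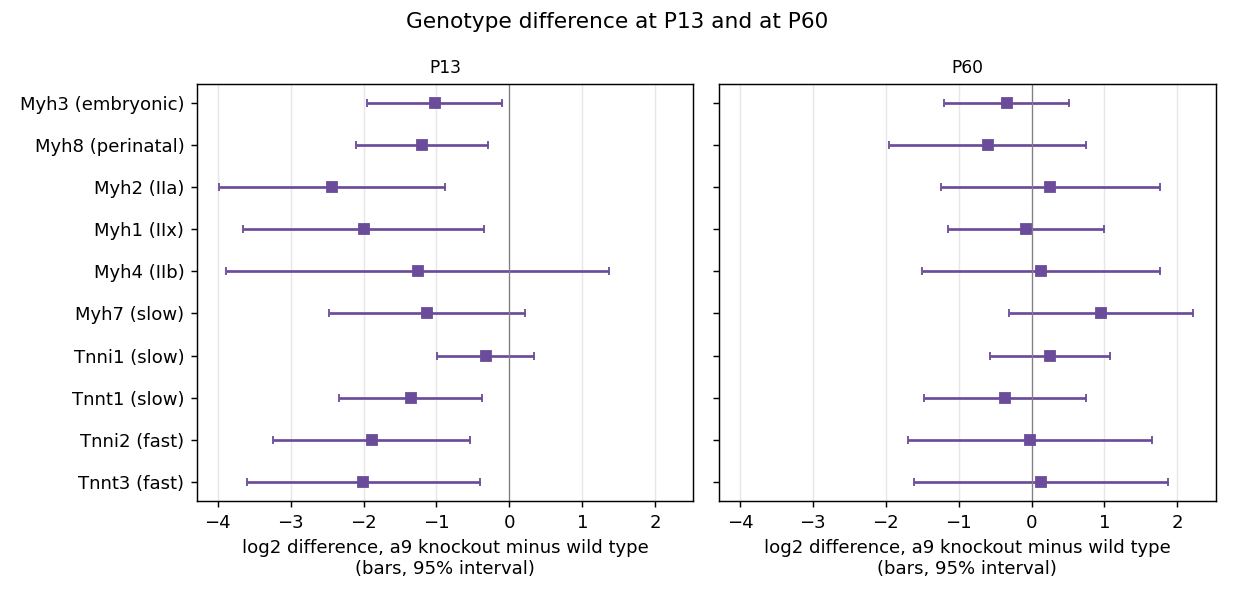
Log2 difference between α9-/- and wild type (x axis, bars give the 95% interval from limma) for each gene at its brightest probe set (y axis) at P13 (left) and P60 (right). At P13 all 10 points lie left of 0, from -2.43 for Myh2 to -0.33 for Tnni1, and at P60 they scatter on both sides of it.

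The third comparison, of the change with age between genotypes, called 0 members in any contrast (limma, lowest adjusted p = 0.528, for Myh2 from P7 to P13), with 0, 1, 3 and 1 members at an unadjusted p under 0.05 for P7-P3, P13-P7, P60-P13 and P60-P3. Over all probe sets 0%, 0.00222%, 0% and 0.00222% passed. For the change from P3 to P60, α9-/- minus wild type was -1.12 for Myh8 (95% interval -3.65 to 1.40) and 0.41 for Myh4 (-2.91 to 3.74). The second Myh4 probe set gave 1.75 (0.24 to 3.25, limma adjusted p = 0.938). It was the 1 member at an unadjusted p under 0.05 in this contrast. These intervals leave room for a difference of several-fold, so that the switch was not shown to differ between the genotypes and was not shown to be equal.

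The other genes of the sarcomere were taken from lists with 1 probe set per gene. From P3 to P60, 1 of 12 partners of the thick filament rose in each genotype, 1 of 13 genes of the thin filament, 3 of 13 Z disc genes in wild type and 2 of 13 in α9-/-, and 7 of 19 genes of calcium handling and energy supply in wild type and 3 of 19 in α9-/-. None of these fell. The list medians were 0.47, 0.97, 1.40 and 1.40 in wild type and 0.31, 0.25, 1.17 and 1.29 in α9-/-. These counts stand beside the 3.2% and 2.79% of all probe sets that rose. Genes that rose in both genotypes were Mybpc2, the fast myosin-binding protein C (by 2.79 in wild type and 2.29 in α9-/-), Tcap, the titin cap (2.44 and 3.06), and Cmya5, a large Z disc protein (2.02 and 1.61). Ckmt2, the sarcomeric mitochondrial creatine kinase, rose by 3.39 and 3.67, myoglobin (Mb), the oxygen store of oxidative fibres, by 3.20 and 3.37, and parvalbumin (Pvalb), a calcium buffer of fast fibres that cochlear neurons and hair cells also express, rose too (by 1.72 in wild type).

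Other genes of early muscle mostly did not pass. Of 7 measured myogenic factors, among them Myod1, Myog and Myf6, 0 passed in either direction from P3 to P60 in either genotype. Of 9 measured genes of myoblast fusion and fetal muscle, 1 fell, and that was Igf2, a growth factor made by many fetal tissues (by 2.85 in wild type and by 2.06 in α9-/-). At P13 the largest genotype differences in these lists were 1.51 for Mef2c and -1.23 for Myf6, and -0.98 for Chrna1, which lay outside the variance filter, and 0.81 for Igf2. In the sarcomere lists they were Mylpf (-1.88) and Myl1 (-1.63) of the thick filament, Neb (-2.20) and Actc1 (-2.18) of the thin filament, Myot (-2.16) and Ldb3 (-1.37) of the Z disc, and Ryr1 (-1.79) and Ckmt2 (-1.73) of calcium handling and energy. Of these, Neb, Myot and Ryr1 were called lower and Mef2c higher.

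Markers of other tissues gave the setting of these values. Of 6 heart markers, Myh6, Nppa and Myl7, named after their values were seen, were dim, with means over the 24 arrays of 3.81, 4.21 and 4.54. Group means over the whole list ran from 4.66 at P7 to 5.55 at P13, both in wild type. At P13 the list mean per array was 5.41 to 5.79 in wild type and 4.73 to 4.96 in α9-/-, with a median difference of -0.75 and 0 genes called. From P3 to P60, 1 of 6 genes of that list rose in each genotype (Ryr2, by 2.31 and 1.94). Smooth muscle markers rose at 1 of 6 genes in wild type and 0 of 6 in α9-/-. From P3 to P60, 4 of 6 cartilage genes fell in each genotype, led by Matn1 (-4.27 and -6.02), Col2a1 (-4.32 and -4.20), Col9a1 (-3.43 and -4.26) and Acan (-1.78 and -2.47). In the same contrast 4 of 8 cerebellar markers rose in wild type and 5 of 8 in α9-/-, Gabra6 by 5.60 and 7.20 and Cbln3 by 4.25 and 6.42. Of 4 measured erythroid genes 2 rose in wild type and 3 in α9-/-. Of 8 measured hair cell genes 0 passed, and of 10 markers of other cochlear cells 2 rose and 3 fell in each genotype, with Tectb (-4.97 and -5.29), Coch (3.96 and 3.71), Tecta (-3.70 and -3.67) and Otor (-1.96 and -2.25) in front. The part of these tissues in the changes of the members was not tested.

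Genes whose level most resembled that of a member over the 24 arrays, by Pearson r on the log2 scale, were looked up among all genes outside the members. For Myh3 they were Atp1b4 (r = 0.94), Tceal7 (0.93) and Cma1 (0.92), and for Myh8 they were Dlk1 (0.95), Atp1b4 (0.93) and Nrk (0.93). Myh4 was followed most closely by Mb, Sh3bgr (0.95 each) and Crispld2 (0.94), and Tnni1 by Tnnc1, the slow and cardiac troponin C (0.89), the gene listed as Kcne1l, and Atp1b4 (0.87 each). Myh3 and Myh8 had an r of 0.94 with each other. All of these values come from the same 24 pools, which share age and the amount of muscle RNA.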

How the data were processed

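Total RNA of pooled cochleae was hybridized to 24 arrays, 3 per genotype and age, and samples were grouped by their labels. The authors made the log2 values in R with AffyPLM: the background was corrected as in RMA, arrays were quantile normalized, and probes were summarized by Tukey biweight. These deposited values were used without further scaling. Of the 45101 probe sets, 34958 carry 1 gene symbol in the platform annotation, 932 carry several and 9211 none. The number of arrays limits the precision, and p-values measure the spread between pools.

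Genotypes were compared within each age (6 arrays) with limma 3.58.1 in R 4.3.3 over the 18041 most variable probe sets (40% of all, ranked on the 24 arrays), a filter taken from the study's methods, and Myh1 at the dim probe set outside it was fitted with all probe sets. Ages and the difference in change between genotypes were fitted with 8 group means over all 24 arrays and all probe sets. p-values were adjusted by Benjamini-Hochberg over all probe sets tested. A probe set was called with an adjusted p below 0.05 and a log2 difference of 1.5 or more, and the difference in change with the adjusted p alone. Scripts were tested on simulated data. Where 1 probe set stands for a gene, it is the brightest on average.

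The members and the 14 gene lists were chosen with earlier results of these data known. The lists were taken from textbook knowledge. Named from each were up to 4 genes with the largest change from P3 to P60 called in both genotypes and up to 2 with the largest genotype difference at P13, and for 4 members the 3 genes of highest Pearson r. Other heart, hair cell and cochlear markers were named after their values were seen, as defining markers. Promoters came from RefSeq (GRCm38.p6). Python 3.11.15 with matplotlib 3.10.9 was used for promoters and figures.

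Alternatives covered the filter, the threshold, 2 scalings, array weights, the replicate number as a block, each array left out, the 5 arrays of low Gapdh 5′ signal left out, the pan-muscle level as a covariate, and the choice of probe set. A block for poly-A control transcripts, the pan-muscle covariate in the genotype comparison, and that covariate without Tnnc2 were chosen after seeing the data. Array scans were not used here.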

Additional observations from a re-analysis of the deposited data

How the results depend on the processing

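Of the alternative values of counts and balances, 442 stayed within their bounds and 62 moved. Myh3, Myh8 and Myh4 passed from P3 to P60 in both genotypes without any 1 array (Myh3 in wild type did not without the 5 arrays of low 5′ Gapdh, at -2.31), and every balance change kept its direction. The cause of the moves below was not tested. With Tnnc2 left out of the pan-muscle covariate, every count given below for that covariate was the same.

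At P13 the member probe sets called lower in α9-/- (1 as reported) were 0 without the variance filter, 2 with the filter taken within the age, 0 with array weights, 0 in the fit of 8 groups, 0 without the 5 arrays of low 5′ Gapdh, 0 with the poly-A block and 0 with the pan-muscle covariate. They ranged from 0 to 8 with each array left out, with 8 without wild type replicate 2. The replicate numbers did not pair the samples, since arrays of the same number correlated in their deviations from the group mean from -0.70 to 0.63, and the count was 2 with the replicate block. Array weights turned the P13 differences of Myh4 (1.54), Myh7 (0.12) and Tnni1 (0.042), and the pan-muscle covariate turned the same ones (1.41, 0.23 and 0.071), also with Tnnc2 left out of it (1.32, 0.20 and 0.071, 0 called lower).

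For P60-P3, wild type member probe sets that rose numbered 8 with array weights and 8 without the 5 arrays of low 5′ Gapdh, where 1 fell. With the pan-muscle covariate 4 fell in wild type and 4 in α9-/-. With each array left out, 2 to 7 rose in wild type and 2 to 5 in α9-/-. Tnnt1 in wild type was -0.66 with the pan-muscle covariate, -0.62 with Tnnc2 left out of it, and ranged from -0.26 to 1.09 with each array left out, including -0.14 without P3 replicate 2 and -0.03 without P60 replicate 3. In α9-/- it ranged from -0.90 to 0.013.

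For P13-P7, wild type member probe sets that rose numbered 1 after quantile normalization, 0 with array weights (where 1 fell) and 0 from the arrays of one genotype, and 0 to 4 with each array left out. With the pan-muscle covariate 1 fell in wild type. In α9-/- 1 rose with array weights, 1 without the 5 arrays of low 5′ Gapdh, 1 with the pan-muscle covariate and 1 from the arrays of one genotype, and 0 to 1 fell with each array left out.

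For P60-P13, wild type member probe sets that rose numbered 2 without the threshold on the difference, 2 after quantile normalization, 8 with array weights, 0 with the pan-muscle covariate (where 2 fell), 0 from the arrays of one genotype, and 0 to 2 with each array left out. In α9-/- 1 rose and 1 fell with the pan-muscle covariate, and 5 to 7 rose with each array left out. For P7-P3, 0 to 1 fell in α9-/- with each array left out, with 1 without P3 replicate 1.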
